A study of Mus musculus with 15 samples.

Results

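The 10 genes described here belong to the brain vessel wall and to leukocyte adhesion, and were followed in the substantia nigra of mice given a virus on 1 side of the brain: Icam1, Vcam1, Cldn5, Ocln, Tjp1, Pecam1, Flt1, Slco1a4, Mfsd2a and Ly6c1. They were chosen by name, and each was found as 1 row in both deposited tables, so that 10 of 36265 genes with values are described. The animals were C57Bl/6J mice, and the substantia nigra is the midbrain region that holds the dopamine neurons lost in Parkinson disease. An adeno-associated virus (AAV) carried either the microRNA miR-181 (AAV-hSYN1-miR-181, at 1.65e10 vector genomes, 3 mice) or green fluorescent protein (AAV-hSYN1-GFP, at 1e10 vector genomes, 5 mice). The hSYN1 promoter, that of human synapsin, acts in neurons, so that the cells of the vessel wall were not the intended source of either product. Tissue was taken 3 weeks after injection from the injected side and from the uninjected side of the same brain, and the uninjected sides received no vector at all. The miR-181 set thus has 6 libraries, 3 from each side, and the GFP set has 9, of which 4 are injected and 5 uninjected, since GFP mouse 5 has its uninjected side only. Vector, dose, sequencer, read length and library set all changed together between the 2 sets and cannot be told apart. The labels used here give neither the age nor the sex of the mice, nor which member of the miR-181 family the vector carried.

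Brain endothelial cells line the vessels as a barrier: tight junction proteins seal the gaps between neighbouring cells, transporters move chosen molecules across them, and little else passes. In a resting brain these cells show few adhesion molecules. When cytokines act on them, they display ICAM1 and VCAM1, which bind integrins on passing leukocytes and let these cells arrest and cross. ICAM1 and VCAM1 can also be made by microglia and astrocytes, and whole tissue does not separate these sources. In such bulk samples fewer cells of a type and less RNA per cell cannot be told apart.

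Values are per-length abundances (TPM, length-scaled transcript shares, divided by a size factor for each library), so genes can be compared within a set; the 2 tables were normalized separately, and levels are not compared across them. Changes are injected minus uninjected differences of log2(value + 0.5) from limma fitted to all genes, with a Benjamini-Hochberg adjusted p of 0.05 as the threshold for a call. Endothelial identity was present in every library: all 18 pan-endothelial genes had values, and their summed value ran from 236 to 277 on uninjected and from 250 to 291 on injected sides of miR-181 mice, and from 234 to 273 and from 238 to 268 in GFP mice. GFP mouse 1 stood apart, with a summed value of pituitary genes of 50114 on its uninjected and 2452 on its injected side. Serotonin neuron genes summed to between 37.8 and 92.7 in miR-181 libraries and to between 0.342 and 1.53 in GFP libraries. Calls in GFP mice are therefore also given without both libraries of mouse 1. Pearson correlations between replicates, taken across genes, ran from 0.961 to 0.986.

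On uninjected sides Ly6c1 was the most abundant of the genes and Icam1 the least in both sets. In miR-181 mice the mean levels there (n = 3) ran in the order Ly6c1 112 ± 7.85 (SD), Tjp1 64.6 ± 1.82, Slco1a4 60.8 ± 4.45, Cldn5 52.1 ± 12.9, Mfsd2a 31.7 ± 3.88, Flt1 31.03 ± 2.74, Vcam1 23.8 ± 1.82, Pecam1 19.5 ± 4.12, Ocln 8.11 ± 0.888 and Icam1 3.60 ± 0.350. The ranges of Tjp1 and Slco1a4, of Slco1a4 and Cldn5, of Mfsd2a and Flt1, and of Vcam1 and Pecam1 overlapped across mice. Within each library Tjp1 lay above Slco1a4 and Vcam1 above Pecam1. The order of Slco1a4 and Cldn5 and that of Mfsd2a and Flt1 varied between libraries. In GFP mice (n = 5) the order was Ly6c1 135 ± 14.2, Cldn5 53.0 ± 7.32, Tjp1 50.7 ± 2.61, Slco1a4 35.7 ± 2.32, Mfsd2a 33.6 ± 2.92, Flt1 24.7 ± 1.47, Pecam1 22.1 ± 2.06, Vcam1 16.7 ± 0.987, Ocln 6.88 ± 1.19 and Icam1 2.23 ± 0.486. There the ranges of Cldn5 and Tjp1, of Slco1a4 and Mfsd2a, and of Flt1 and Pecam1 overlapped.

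**Figure D1:**
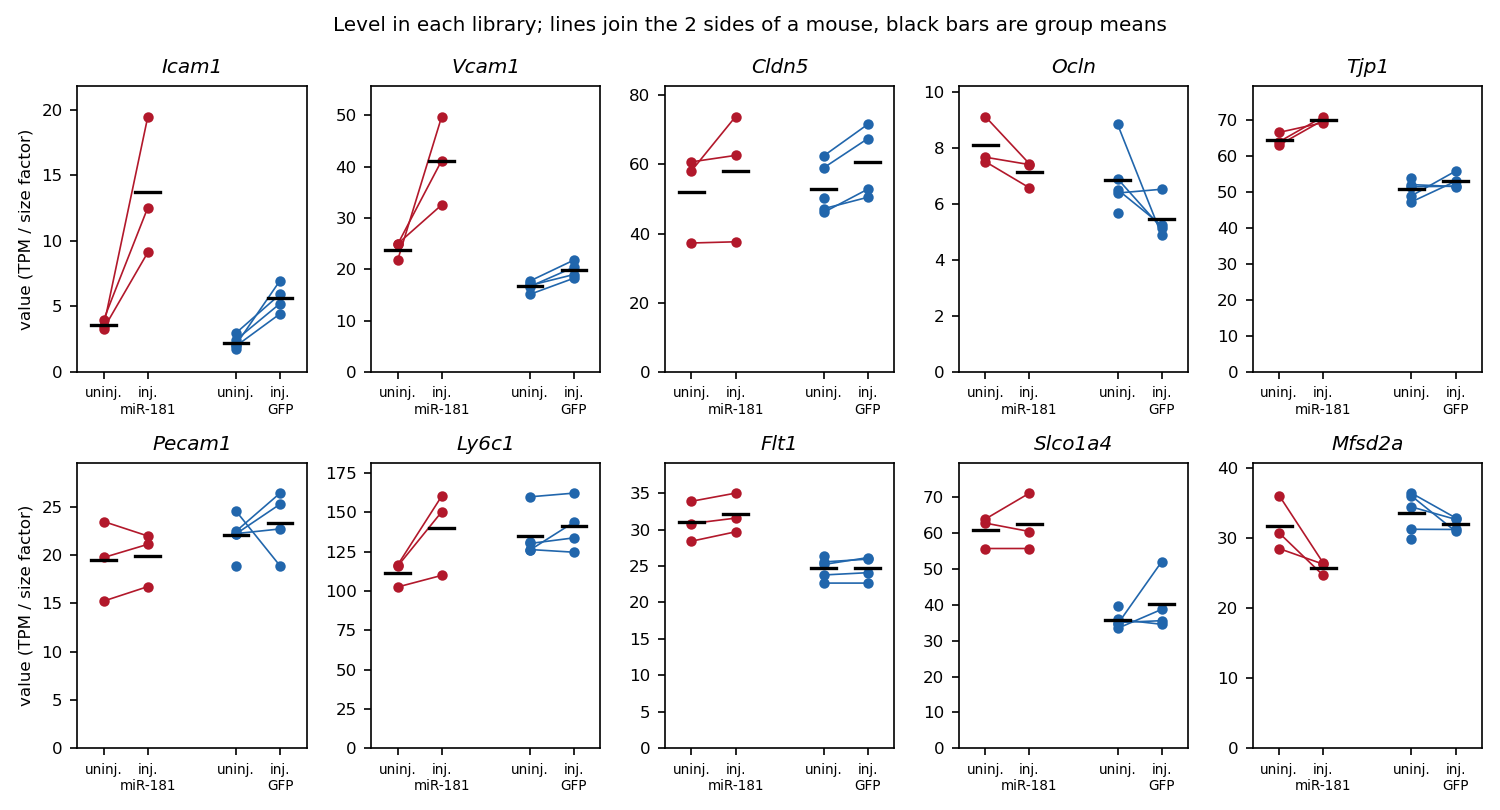
Level of each of the 10 genes in each library (value, TPM divided by a size factor, linear axes from 0); red points are miR-181 libraries, blue points GFP libraries, lines join both sides of a mouse, and black bars are group means. The injected points of Icam1 and Vcam1 lie above all uninjected points in both sets, whereas those of Cldn5, Pecam1, Flt1, Slco1a4 and Ly6c1 overlap the uninjected ones.

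On the injected side of miR-181 mice the leukocyte adhesion genes Icam1 and Vcam1 were called higher, and no member was called lower. Mfsd2a and Ocln were lower there without overlap of the sides, but did not pass. Icam1 was called higher in GFP mice too. The junction genes Cldn5, Ocln and Tjp1, the platelet and endothelial adhesion gene Pecam1, the VEGF receptor Flt1, the transporters Slco1a4 and Mfsd2a and the surface antigen Ly6c1 did not pass the threshold in either set. Thus 2 of 10 members were called in miR-181 mice, where 5.88% of all 15453 tested genes were called (4.39% higher and 1.49% lower), and 1 of 10 in GFP mice, where 1.35% of 15274 were (1.34% higher and 0.0131% lower). The median log2 change over the 10 members was 0.08 in miR-181 mice and 0.07 in GFP mice, beside medians of 0.0035 and 0.0046 over all tested genes. The count in miR-181 mice changed when 1 library was left out, which also leaves fewer libraries to the test. It was 0 without uninjected library 1, 2 or 3 or injected library 3. It was 1 without injected library 2 and 3 without injected library 1.

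Icam1 (ENSMUSG00000037405, GRCm38 chr9:21015985-21028817, plus strand) encodes the endothelial ligand of the leukocyte integrins that contain ITGB2. Its values on the uninjected sides of miR-181 mice 1, 2 and 3 were 3.30, 3.50 and 3.98, and on their injected sides 9.11, 19.5 and 12.5. The sides did not overlap, and mouse 2 had the largest within-mouse log2 change, 2.32, against 1.34 in mouse 1 and 1.54 in mouse 3. The log2 change was 1.73 ± 0.25 (SE), with a 95% interval from 1.14 to 2.33, that is a fold of 3.32 on this scale, which understates the change of low genes (limma adjusted p = 0.0147, or 0.0246 in the fit blocked by mouse). Leaving out 1 library gave changes from 1.45 to 1.98; the call was lost without uninjected library 1 (adjusted p = 0.0763), 2 (0.0812) or 3 (0.0614) or without injected library 3 (0.0637).

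In GFP mice Icam1 values on the uninjected sides of mice 1 to 5 were 2.96, 2.07, 1.96, 2.43 and 1.70, and on the injected sides of mice 1 to 4 they were 5.91, 6.96, 4.43 and 5.21. All 4 injected sides lay above all 5 uninjected ones. The log2 change was 1.17 ± 0.17 (95% interval 0.79 to 1.55, fold 2.25, limma adjusted p = 0.00851), and it was 0.89, 1.54, 1.00 and 0.96 in mice 1 to 4. With mouse as a block, which leaves out the information of mouse 5, the change was 1.10 and the adjusted p 0.0535, so the call was lost. Without both libraries of mouse 1 the change was 1.23, with an adjusted p of 0.0242. In the authors' deposited table the q-value of Icam1 was 8.27e-07 in miR-181 mice and 3.36e-09 in GFP mice, with geometric means of 285 and 62.4 estimated counts for each library.

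The last part of Icam1 lies opposite an antisense gene, Gm47079 (chr9:21028307-21032357, minus strand), which has no values in the tables. Of the 31-base words in annotated Icam1 transcripts 14.8% also occur in another gene on either strand, 11.2% in Gm47079. The libraries keep strand, but the sources used here do not say whether strand was used in counting, so reads of both genes in that stretch cannot be told apart.

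The Icam1 promoter is shown because Icam1 was the member that changed in both sets. Its 300 bases, from 250 before to 50 after the start (RefSeq, GRCm38.p6, chr9:21015690-21015989, plus strand), read as follows, with matches in capitals.
Icam1 promoter: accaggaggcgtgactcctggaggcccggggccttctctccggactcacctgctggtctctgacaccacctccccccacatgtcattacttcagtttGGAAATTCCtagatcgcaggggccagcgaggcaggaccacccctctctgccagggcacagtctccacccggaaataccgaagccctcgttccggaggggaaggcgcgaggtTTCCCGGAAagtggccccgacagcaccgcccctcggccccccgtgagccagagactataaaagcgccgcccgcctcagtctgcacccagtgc
The first capitals, GGAAATTCC at positions -153 to -145 from the start, form a palindrome of the kind that NF-kB factors bind. This form was added to the search after the sequence had been looked at, and it occurs in 0.317% of 32851 promoters of the same length. The second, TTCCCGGAA at positions -42 to -34, matches TTCNNNGAA, the interferon-responsive element called GAS, searched on both strands and found in 8.30% of promoters. The general NF-kB motif, in 8.46% of promoters, matched in the Flt1 promoter at positions -92 to -83, and the interferon-stimulated response element (ISRE, in 3.44%) matched in none. Promoters of 8 of the 10 members were in the table, and those of Cldn5, Ocln, Tjp1, Slco1a4, Mfsd2a and Ly6c1 held none of these letters. No binding was measured here.

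Vcam1 (ENSMUSG00000027962, chr3:116109949-116129688, minus strand) encodes the ligand of the integrin made of ITGA4 and ITGB1, which lymphocytes and monocytes carry. Its values on the uninjected sides of miR-181 mice 1, 2 and 3 were 24.9, 21.7 and 24.8, and on the injected sides 32.5, 49.7 and 41.2. The sides did not overlap, and the mice kept the order seen for Icam1, with log2 changes of 0.38 in mouse 1, 1.18 in mouse 2 and 0.72 in mouse 3. The log2 change was 0.76 ± 0.15 (95% interval 0.41 to 1.11, fold 1.69, limma adjusted p = 0.0352), but the fit blocked by mouse gave an adjusted p of 0.0634 and no call. Without 1 library the call was lost for uninjected library 1 (0.110), 2 (0.143) or 3 (0.114) and for injected library 2 (0.0565) or 3 (0.114), with changes from 0.61 to 0.91.

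In GFP mice Vcam1 did not pass the threshold. Its uninjected values were 16.6, 16.8, 15.1, 17.7 and 17.3 in mice 1 to 5 and its injected values 20.4, 19.0, 18.2 and 21.8 in mice 1 to 4. The sides did not overlap here either, and each of the 4 mice was higher on its injected side, by 0.29, 0.17, 0.27 and 0.29 on the log2 scale. The log2 change was 0.24 ± 0.07 (95% interval 0.08 to 0.40; unadjusted p = 0.00632, limma adjusted p = 0.207). The authors' deposited table gave Vcam1 a q-value of 0.00109 in miR-181 mice and 0.164 in GFP mice.

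Pecam1 (ENSMUSG00000020717, chr11:106654217-106750628, minus strand) encodes a molecule of endothelial cell borders that leukocytes use in crossing. Its uninjected values in miR-181 mice were 15.2, 19.8 and 23.5 and its injected values 16.7, 21.1 and 22.0. In GFP mice they were 22.2, 22.2, 24.6, 22.5 and 18.8 on uninjected and 25.3, 22.7, 18.9 and 26.4 on injected sides. The sides overlapped in both sets, with log2 changes of 0.04 ± 0.17 (95% interval -0.36 to 0.45, adjusted p = 0.907) and 0.07 ± 0.10 (-0.16 to 0.30, adjusted p = 0.869). The first of these changed sign under other scalings, and its SE was 0.073 with mouse as a block.

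Counting non-overlap gives a wider view of the 10 genes but a weak one. In miR-181 mice Icam1, Vcam1 and Tjp1 lay entirely above and Ocln and Mfsd2a entirely below on the injected side, 5 of 10, where 30.5% of all tested genes had sides that did not overlap (16.0% above and 14.5% below). In GFP mice Icam1 and Vcam1 did, 2 of 10, where the share was 4.29% (3.29% above and 1.0% below).

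**Figure D2:**
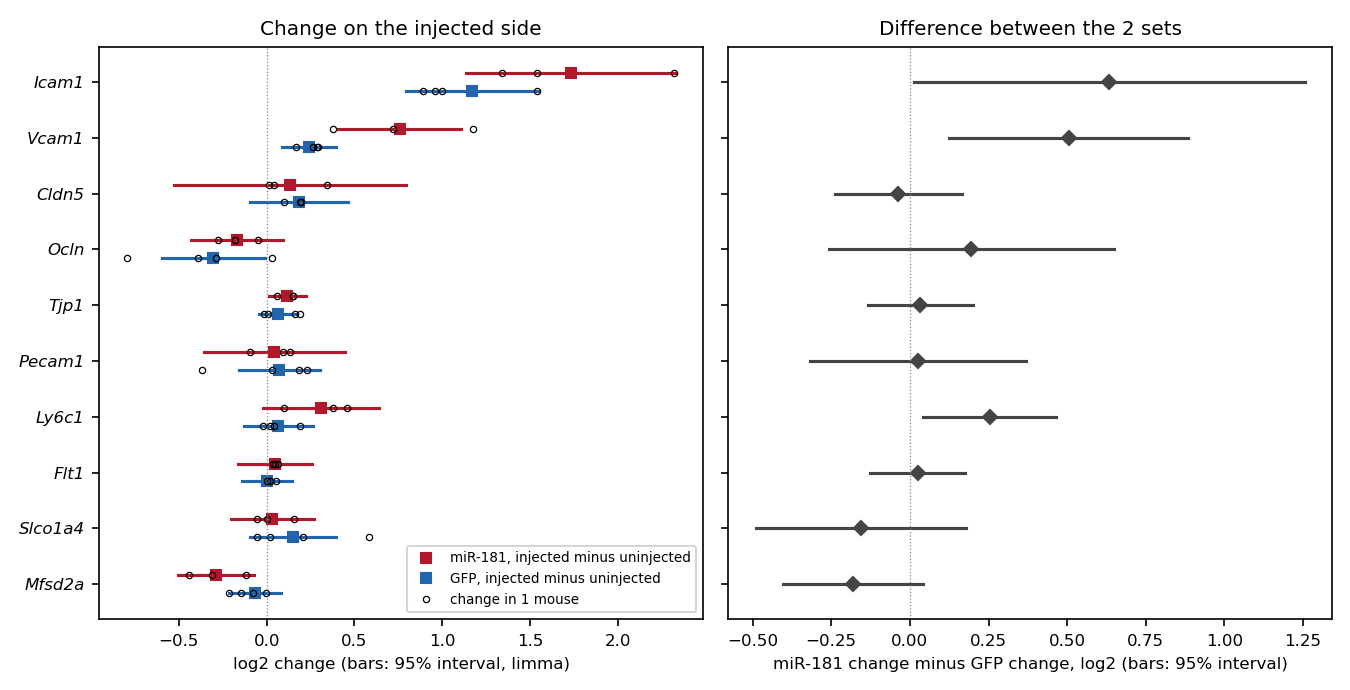
Left, log2 change of each gene on the injected side (x axis, log2 scale) in miR-181 mice (red squares) and GFP mice (blue squares) with 95% intervals from limma and the change in each mouse (open circles); right, the miR-181 change minus the GFP change with its 95% interval (diamonds). The change of Icam1 is 1.73 in miR-181 and 1.17 in GFP mice and that of Vcam1 0.76 and 0.24, while the other squares lie between -0.30 and 0.31.

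The tight junction genes did not pass in either set. Cldn5 (ENSMUSG00000041378, chr16:18776847-18778262, plus strand) encodes claudin-5, the main sealing protein of the barrier. It varied widely among libraries of 1 side: 37.3, 58.1 and 60.7 on uninjected and 37.6, 73.8 and 62.6 on injected sides of miR-181 mice. Mouse 1 was low on both sides. The log2 change was 0.13 ± 0.28, with a 95% interval from -0.53 to 0.80, so that folds from 0.693 to 1.74 lie within it (adjusted p = 0.821). This interval does not use the pairing of the sides and so includes the spread of levels between mice. With mouse as a block the SE was 0.080 (limma adjusted p = 0.359). Within mice 1, 2 and 3 the log2 changes were 0.013, 0.34 and 0.043. In GFP mice the values were 59.0, 62.5, 46.1, 47.2 and 50.3 on uninjected and 67.5, 71.6, 52.9 and 50.5 on injected sides. Each GFP mouse was higher on its injected side, by 0.10 to 0.20 on the log2 scale, but the sides overlapped (change 0.19 ± 0.13, 95% interval -0.09 to 0.47, adjusted p = 0.700).

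Ocln (ENSMUSG00000021638, chr13:100496507-100552718, minus strand) encodes occludin, a membrane protein of the same junctions. Its values were 7.52, 7.68 and 9.14 on uninjected and 6.59, 7.42 and 7.45 on injected sides of miR-181 mice. The injected sides were lower without overlap, by a log2 change of -0.17 ± 0.11 (95% interval -0.43 to 0.09, adjusted p = 0.409). In GFP mice the uninjected values were 8.86, 6.91, 6.40, 6.52 and 5.70 and the injected ones 4.89, 5.14, 6.54 and 5.24. These overlapped, with a change of -0.30 ± 0.13 (95% interval -0.60 to -0.01; unadjusted p = 0.0447, adjusted p = 0.511), and mouse 1 had the largest within-mouse change, -0.80. Without both libraries of mouse 1 the change was -0.17.

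Tjp1 (ENSMUSG00000030516, chr7:65296165-65527781, minus strand) encodes ZO-1, which ties junction proteins to the cytoskeleton in endothelial and many other cells. Its values hardly varied within a side: 66.6, 63.1 and 64.0 on uninjected and 69.3, 70.0 and 71.0 on injected sides of miR-181 mice. The sides did not overlap, and the log2 change was 0.12 ± 0.04 (95% interval 0.01 to 0.22; unadjusted p = 0.0306, adjusted p = 0.166). In GFP mice uninjected values ran from 47.3 to 53.9 and injected ones from 51.5 to 55.8, with a change of 0.06 ± 0.05 (adjusted p = 0.743).

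Flt1 (ENSMUSG00000029648, chr5:147561604-147726011, minus strand) encodes a receptor that binds VEGF and limits its action on KDR, the main signalling receptor. Its levels on both sides of a brain were close. Its values were 28.4, 30.8 and 33.9 on uninjected and 29.7, 31.6 and 35.0 on injected sides of miR-181 mice, and between 22.7 and 26.3 on uninjected and between 22.7 and 26.2 on injected sides of GFP mice. The 95% intervals of its log2 change were -0.16 to 0.26 and -0.14 to 0.14, which leave folds from 0.894 to 1.20 and from 0.906 to 1.10. These intervals do not use the pairing of the sides. In miR-181 mice the SE was 0.089 without and 0.051 with mouse as a block. The sign of its change varied with the setting in both sets. Kdr, much less abundant at 4.05 to 7.96 over all libraries, changed by -0.03 ± 0.17 and -0.05 ± 0.20 and did not pass.

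Mfsd2a (ENSMUSG00000028655, chr4:122946850-122961188, minus strand) encodes the transporter of docosahexaenoic acid lipids that also restrains vesicle traffic across the barrier. Its values were 28.5, 36.0 and 30.7 on uninjected and 26.3, 26.4 and 24.7 on injected sides of miR-181 mice. Every injected side lay below every uninjected one, and the log2 change was -0.29 ± 0.09 (95% interval -0.51 to -0.07, fold 0.818). It missed the threshold (unadjusted p = 0.0163, limma adjusted p = 0.122), whereas in the authors' deposited table the q-value was 0.0439. In GFP mice the values were 31.2, 36.0, 34.4, 36.4 and 29.8 on uninjected and 31.2, 30.9, 32.7 and 32.9 on injected sides, which overlapped (change -0.07 ± 0.07, 95% interval -0.22 to 0.08, adjusted p = 0.796). The within-mouse log2 changes were -0.0011, -0.21, -0.075 and -0.14 in GFP mice 1 to 4. They were -0.12, -0.44 and -0.31 in miR-181 mice 1 to 3.

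Slco1a4 (ENSMUSG00000030237, chr6:141805440-141856199, minus strand) encodes an organic anion transporter of brain endothelium. Its values were 63.9, 62.8 and 55.7 on uninjected and 71.1, 60.4 and 55.7 on injected sides of miR-181 mice, with a change of 0.03 ± 0.10 (95% interval -0.20 to 0.27, adjusted p = 0.877). With mouse as a block the SE was 0.058. In GFP mice uninjected values ran from 33.4 to 39.5, while the injected ones were 52.0, 38.7, 35.6 and 34.6. Mouse 1, whose libraries stand apart, held the highest of these, with a within-mouse log2 change of 0.58 against -0.06 to 0.21 in the others, and the change over all mice was 0.15 ± 0.11 (adjusted p = 0.722). It was 0.023 without the injected library of mouse 1 and 0.013 without both of its libraries. Of the 31-base words of Slco1a4 transcripts 5.03% occur in other genes, 3.40% in its relative Slco1a5.

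Ly6c1 (ENSMUSG00000079018, chr15:75044018-75048830, minus strand) encodes a small surface antigen of mouse endothelium and has a near-identical neighbour, Ly6c2 (ENSMUSG00000022584, chr15:75108158-75111970, minus strand), the form known from inflammatory monocytes. Both coding sequences hold 396 bases and are 97.73% identical, with 9 differences and a longest identical run of 188 bases. The first 240 bases of each are shown, from the GENCODE M21 transcripts of GRCm38, because reads from the identical stretches can be assigned to either gene; capitals mark the 6 positions that differ there.
Ly6c1: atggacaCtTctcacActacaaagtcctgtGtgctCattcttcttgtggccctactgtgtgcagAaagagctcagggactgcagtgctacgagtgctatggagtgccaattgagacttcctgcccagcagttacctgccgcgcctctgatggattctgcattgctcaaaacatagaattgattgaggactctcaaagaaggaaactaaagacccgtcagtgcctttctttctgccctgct
Ly6c2: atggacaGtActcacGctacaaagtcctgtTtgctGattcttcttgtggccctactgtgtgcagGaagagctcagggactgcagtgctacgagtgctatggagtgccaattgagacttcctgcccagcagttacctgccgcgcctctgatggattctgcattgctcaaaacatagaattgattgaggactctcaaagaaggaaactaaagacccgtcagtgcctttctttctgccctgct
Of the 31-base words of annotated Ly6c1 transcripts 46.8% occur in other genes, 33.1% in Ly6c2, so the split between both genes is uncertain.

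Ly6c1 values were 103, 116 and 116 on uninjected and 110, 160 and 150 on injected sides of miR-181 mice. All 3 mice were higher on the injected side, mouse 1 by the least, and the sides overlapped. The log2 change was 0.31 ± 0.14 (95% interval -0.02 to 0.64, adjusted p = 0.236); without injected library 1 it was 0.48 and passed (adjusted p = 0.00986). In GFP mice the values ran from 126 to 160 on uninjected and from 125 to 162 on injected sides, with a change of 0.07 ± 0.09 (95% interval -0.13 to 0.26, adjusted p = 0.857).

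Ly6c2 rose on the injected side of miR-181 mice, from 1.04, 0.935 and 1.22 to 6.92, 29.4 and 43.0, a log2 change of 3.77 ± 0.60 (limma adjusted p = 0.0194); without any 1 library but injected library 1 the adjusted p lay between 0.0573 and 0.0955, and without that library it was 1.03e-04. Its share of the summed value of both genes thus went from between 0.796% and 1.04% to 5.92%, 15.5% and 22.3%. In GFP mice it went from between 0.540% and 0.909% to 3.94%, 7.15%, 1.49% and 1.99% in mice 1 to 4, with a log2 change of 1.78 ± 0.38 that missed the threshold (adjusted p = 0.0531; 0.0117 without injected library 3). The authors' deposited q-value of Ly6c2 was 8.21e-06 in miR-181 mice and 0.00115 in GFP mice. The mice with the higher Ly6c2 among miR-181 animals, 2 and 3, were those with the higher Ly6c1 change (0.46 and 0.38 against 0.10). The order differed in GFP mice: mouse 2 had the highest Ly6c2 share and a Ly6c1 change of 0.04, whereas the highest Ly6c1 change, 0.19, was in mouse 1. How far misassigned reads move Ly6c1 was not tested.

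**Figure D3:**
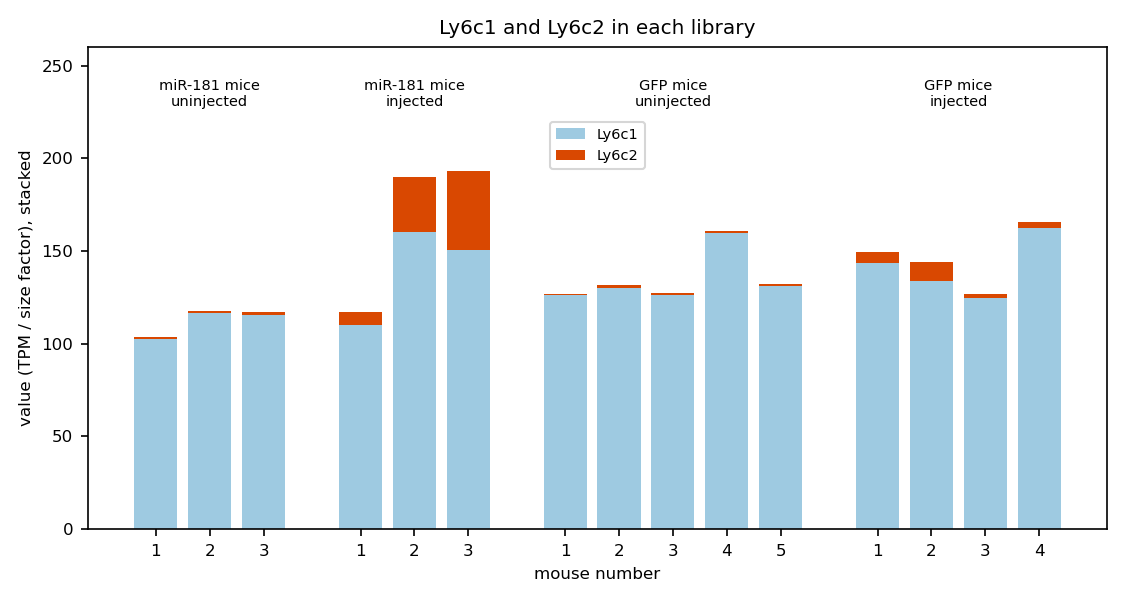
Stacked values (TPM divided by a size factor) of Ly6c1 (blue) and Ly6c2 (orange) in each library, with mouse numbers below the bars and groups above. Ly6c2 is a thin cap on all uninjected bars, at most 1.22, and reaches 29.4 and 43.0 on the injected sides of miR-181 mice 2 and 3.

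The direct comparison of both vectors used the within-mouse changes of 3 miR-181 and 4 GFP mice. No member passed with limma (0 of 10), where 0.0337% of 14824 genes were called. At an unadjusted p under 0.05 there were 3 of 10 members, beside 2268 of all 14824 genes. The largest differences were those of Icam1, 0.63 ± 0.27 (95% interval 0.01 to 1.25, unadjusted p = 0.0461, adjusted p = 0.319), and Vcam1, 0.50 ± 0.17 (0.12 to 0.88, unadjusted p = 0.0153, adjusted p = 0.220). Without miR-181 mouse 2 these differences were 0.34 and 0.29. Every miR-181 mouse had a larger Vcam1 change than every GFP mouse, 0.38 to 1.18 against 0.17 to 0.29, whereas for Icam1 GFP mouse 2, at 1.54, lay above miR-181 mouse 1 and beside mouse 3. Ly6c1 differed by 0.25 ± 0.09 (unadjusted p = 0.0244, adjusted p = 0.258). The intervals of the other differences were -0.24 to 0.17 for Cldn5, -0.26 to 0.65 for Ocln, -0.13 to 0.20 for Tjp1, -0.32 to 0.37 for Pecam1, -0.13 to 0.18 for Flt1, -0.49 to 0.18 for Slco1a4 and -0.40 to 0.04 for Mfsd2a.

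Seed matches are shown because miR-181 was the agent given and because both genes that rose hold them. A microRNA usually lowers transcripts whose 3' UTR pairs with its seed, bases 2 to 8. The mature sequences below (RefSeq, GRCm38.p6) have the seed in capitals, ACAUUCA in all 4.
mmu-miR-181a-5p: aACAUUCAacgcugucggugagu
mmu-miR-181b-5p: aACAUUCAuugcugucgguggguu
mmu-miR-181c-5p: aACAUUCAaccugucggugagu
mmu-miR-181d-5p: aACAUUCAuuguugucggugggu
The longest 3' UTR annotated for a member was searched. Letters pairing with the seed (TGAATGT, or GAATGTA, which pairs with bases 2 to 7 and ends in A) were found in Icam1, Vcam1 and Flt1, and in none of the other 7 members. They are in capitals in these windows of 30 bases, with both forms overlapping in the Icam1 site.
Icam1 site: gatcagtgaggaggTGAATGTAtaagttat
Vcam1 first site: agatactagaaagcTGAATGTgtggaaagc
Vcam1 second site: acactttggacactTGAATGTtagtcctga
Flt1 site: gaggccacctcactaGAATGTAtacacgtc
The Icam1 site is at bases 447 to 454 of a 3' UTR of 871 bases, those of Vcam1 at 566 to 572 and 1226 to 1232 of 1404, and that of Flt1 at 3705 to 3711 of 3971. Among 14335 tested genes with a 3' UTR 24.8% hold such a match, so 3 of 10 is near the background. The 3 genes with a match changed by 1.73, 0.76 and 0.05 on the log2 scale in miR-181 mice, and the sign of the last varied with the setting. A match is a description of letters, and pairing was not measured.

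The lists around the members are read against the shares of all tested genes called higher, 4.39% in miR-181 and 1.34% in GFP mice. Counts at an unadjusted limma p under 0.05, here and below, have their own background. It was 3631 of 15453 tested genes in miR-181 and 1454 of 15274 in GFP mice. For the difference it was 2268 of 14824. The vessel lists had 0 or 1 gene called in each set. Of 18 pan-endothelial genes 1 rose in miR-181 mice, Cd34 (0.50 ± 0.09, adjusted p = 0.0269), and 0 did in GFP mice, with median changes of 0.06 and 0.04. Cdh5, the adhesion protein of endothelial borders, did not pass in miR-181 mice (0.11 ± 0.15) or in GFP mice (0.10 ± 0.09). Of the other junction genes 1 of 14 rose in miR-181 mice, F11r (0.74 ± 0.16, adjusted p = 0.0431), which encodes JAM-A of endothelium, epithelium and leukocytes, and 0 of 15 in GFP mice. Of the other barrier transporter genes 1 of 18 rose in miR-181 mice, Slco2b1 (0.82 ± 0.08, adjusted p = 0.00425), and 0 of 18 in GFP mice. Whole tissue does not tell which cells, of the vessel wall or others, gave the Slco2b1 rise, and this was not tested. No gene of the VEGF and angiopoietin list (12 and 11 tested), of the Wnt barrier list (14 in each set) or of the pericyte list (11 in each) passed, with 3, 1 and 0 genes at an unadjusted p under 0.05 in miR-181 mice; in the GFP set these were 0, 2 and 2. The vascular smooth muscle list had 0 of 6 and 0 of 5 genes called, with medians of -0.29 in miR-181 and 0.26 in GFP mice; for the difference between sets its median was -0.51, with 0 of 5 called and 3 at an unadjusted p under 0.05. Without miR-181 mouse 1 the smooth muscle list had 1 gene called lower for the difference. No gene of these lists was called lower in either set with all libraries in the fit. In miR-181 mice the pan-endothelial and junction counts were 0 without any 1 library but injected library 1. Without that library they were 2 and 1, the VEGF and Wnt lists each had 1 gene called higher, and the transporter list had 3 called higher and 1 lower. The transporter count was otherwise 1 or 2. Without GFP mouse 1, F11r was called in GFP mice (0.59, adjusted p = 0.0377), and no other gene of these lists was.

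Of the other endothelial adhesion genes 1 of 11 passed in miR-181 mice, again Cd34, and 0 of 11 in GFP mice, with 3 at an unadjusted p under 0.05 in each set. The count of 1 was 2 without injected library 1 and 0 without any other. Icam2, a constitutive endothelial ligand of the same integrins, changed by 0.48 ± 0.12 in miR-181 mice (adjusted p = 0.0725). The selectins, on which leukocytes roll before they arrest, were too low to be tested: Sele was at most 0.148 and Selp at most 0.4995 in any library. These 2 were chosen after their values were seen.

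The counter-receptor list holds leukocyte integrin chains, among them those that bind ICAM1 and VCAM1, with L-selectin, selectin ligands and CD44. In miR-181 mice 6 of 11 of its genes were called, all higher, where 4.39% of all genes were, with a median change of 0.99. With mouse as a block 6 were called too, but Cd44 was lost (adjusted p = 0.0716) and Spn gained (0.0491). Itgb2, the chain shared by the ICAM1 receptors, went from between 5.42 and 6.70 to between 19.6 and 36.5 (2.07 ± 0.21, adjusted p = 0.00512). Itgax went from between 0.508 and 0.579 to between 10.2 and 24.0 (3.90 ± 0.29, adjusted p = 0.00249). The filter takes the mean over both sides, so Itgax was tested there only through its high injected sides. Genes of this kind can raise the shares called in this list and those below. With no filter 3 of 12 counter-receptor genes were called in miR-181 and 6 of 12 in GFP mice. For the inducer list below the counts were 3 of 16 and 3 of 15. In GFP mice 3 of 8 rose, where 1.34% of all genes did, with a median of 0.54: Itgb2 (1.36 ± 0.13, adjusted p = 0.000848), Itgax (2.12 ± 0.34, adjusted p = 0.0130) and Itgam (0.59 ± 0.09, adjusted p = 0.00992). With the block Itgax was lost (adjusted p = 0.0682) and Selplg gained (0.0335), and without GFP mouse 1 Itgax was lost (0.0552) and 2 genes remained. The chains of the VCAM1 receptor did not pass: Itga4 changed by 0.83 ± 0.27 in miR-181 mice (adjusted p = 0.127) and by 0.09 ± 0.18 in GFP mice, and Itgb1 by 0.28 ± 0.09 (adjusted p = 0.124) and 0.07 ± 0.09. Itga4 and Itgb1 in the second set are named outside the rule, after their values were seen. Without 1 library the count of 6 was 10 (without injected library 1), 5 (injected library 2) or 2 (any other), and the count of 3 was 3 or 4. Cd44, Spn and Selplg were chosen after their values were seen.

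Of genes that induce adhesion molecules or carry that signal, 6 of 12 passed in miR-181 mice, all higher (5 with mouse as a block), where 4.39% of all genes were called higher. Among them was Irf1, a factor of the interferon response (2.72 ± 0.26, adjusted p = 0.00398). In GFP mice 3 of 12 did (2 with the block), where the share over all genes was 1.34%. Among these were Tnfrsf1b, a receptor of TNF (0.76 ± 0.11, adjusted p = 0.00826, or 0.0564 with the block), and Irf1 (1.00 ± 0.20, adjusted p = 0.0376). Without GFP mouse 1 the count was 3 of 11, with adjusted p of 0.0386 for Tnfrsf1b and 0.0257 for Irf1. The median changes were 0.89 and 0.36. Ifng was listed at 0 in all 9 GFP libraries and ran from 0.420 to 1.63 on injected sides of miR-181 mice, a gene chosen after its values were seen. Without 1 library the count in miR-181 mice was 10 (without injected library 1), 4 (injected library 2) or 2 (any other), and in GFP mice it was 4 without uninjected library 1, 3 without injected library 3 and 2 without any other. For the difference between sets 0 genes of either list passed, with the lowest adjusted p at 0.0726, for Irf1. Without miR-181 mouse 1, 2 inducer genes passed for the difference.

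Of the other Ly6 genes 5 of 7 rose and 1 fell in miR-181 mice, where 4.39% and 1.49% of all genes did, and 1 of 6 rose in GFP mice, where 1.34% did: Ly6e (0.43 ± 0.07, adjusted p = 0.0210; 0.0302 without GFP mouse 1). Ly6i rose by 3.96 ± 0.28 in miR-181 mice (adjusted p = 0.00225). Ly6h, a neuronal member, was the one that fell, by -0.23 ± 0.05 (adjusted p = 0.0459). This last call was lost with mouse as a block, where 5 genes rose and 0 fell in miR-181 mice and 2 rose in GFP mice. It was also lost without any 1 library. The count of 5 was then 5 without injected library 1, 2 without injected library 2 and 1 without any other, and it was 2 with no filter on low values. The count in GFP mice was 3 without injected library 3, 1 without uninjected library 1 and 0 without any other. For the difference between sets 0 of 6 passed, or 3 without miR-181 mouse 1.

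**Figure D4:**
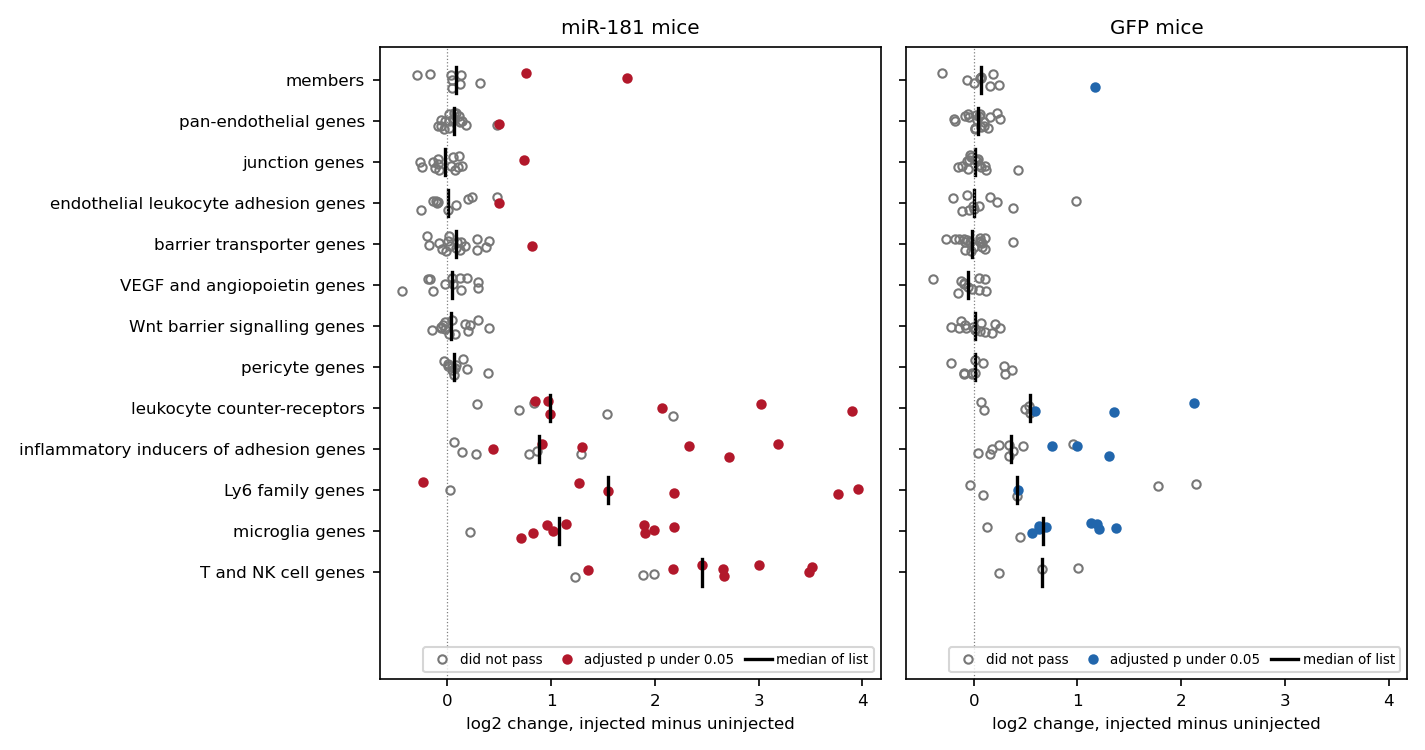
Log2 change on the injected side (x axis) of each tested gene of 13 lists (rows) in miR-181 mice (left) and GFP mice (right); filled points passed an adjusted p of 0.05 in limma, open points did not, and black bars are list medians. The lists from pan-endothelial to pericyte genes cluster near 0, with medians between -0.05 and 0.09, while counter-receptors, inducers, Ly6 family, microglia and T and NK cell genes lie to the right, with medians between 0.36 and 2.46.

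Markers of other cell types moved with the adhesion genes. The summed value of 10 microglia genes went from between 585 and 608 to between 1340 and 2370 in miR-181 mice, with 9 of 10 genes called higher, and from between 457 and 613 to between 883 and 1171 in GFP mice, with 8 of 10. That of 12 T and NK cell genes went from between 13.0 and 17.6 to between 40.9 and 154 in miR-181 mice (8 of 11 called) and from between 9.68 and 20.1 to between 26.4 and 32.3 in GFP mice (0 of 3 called, 2 at an unadjusted p under 0.05). That of 8 B and plasma cell genes went from between 85.3 and 149 to between 942 and 4991 (5 of 6 called) and from between 23.4 and 51.6 to between 97.5 and 1537 (3 of 4 called). That of 8 monocyte genes went from between 25.4 and 46.4 to between 43.8 and 121 (3 of 5 called) and from between 17.4 and 23.6 to between 23.0 and 43.4 (0 of 4 called, 2 at an unadjusted p under 0.05). On uninjected sides of GFP mice Chil3 and Plac8 were listed at 0, and no other defining marker of these 4 lists was at 0 in every library of a group. Of 8 astrocyte genes 2 and 1 were called higher. With mouse as a block the 3 B and plasma cell calls in GFP mice were all lost. Without GFP mouse 1 the counts there were 7 microglia, 3 B and plasma cell, 0 astrocyte, 0 T and NK cell and 0 monocyte genes. Platelet and red cell genes, which come with blood left in the vessels, had 0 of 2 and 0 of 5 genes called in each set. These counts also changed when 1 library was left out. In miR-181 mice they were highest without injected library 1, with 11 T and NK cell, 6 B and plasma cell and 4 monocyte genes, and without injected library 2 they were 5, 2 and 1. Without any 1 of the remaining libraries they were 0 for T and NK cell, 0 to 2 for B and plasma cell and 0 to 1 for monocyte genes, and the astrocyte count was 2, 1 and 0 in the same order. The microglia count, 7 to 9 without an injected library, was 3 to 5 without an uninjected one. With no filter on low values 0 T and NK cell, 0 monocyte, 1 B and plasma cell and 7 microglia genes were called in miR-181 mice. In GFP mice these counts were 2, 1, 0 and 7. The filter had let 11 of 12 T and NK cell genes be tested in miR-181 mice but 3 of 12 in GFP mice. The ranges without 1 library in GFP mice were 7 to 8 for microglia, 0 to 3 for B and plasma cell, 0 to 1 for T and NK cell, 0 to 1 for monocyte and 0 to 1 for astrocyte genes. The part of these cells in the levels of Icam1 and Vcam1 was not tested. Centring each library on its pan-endothelial genes shifted the changes of all genes by a median of only -0.049 in miR-181 and -0.058 in GFP mice. Icam1 and Vcam1 were then called in miR-181 mice and Icam1 in GFP mice. Shifts this small cannot separate the cell sources of either gene.

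Set against endothelial RNA, Icam1 amounted to 1.42% ± 0.0203 (SD, n = 3) of the summed pan-endothelial value on uninjected and 5.04% ± 1.89 on injected sides of miR-181 mice, and to 0.868% ± 0.161 (n = 5) and 2.17% ± 0.321 (n = 4) in GFP mice. Vcam1 amounted to 9.43% ± 0.989 and 15.2% ± 2.83, and to 6.56% ± 0.568 and 7.71% ± 0.568. For Icam1 the ranges of both sides were apart in both sets, from 1.40% to 1.44% against 3.64% to 7.19% and from 0.728% to 1.11% against 1.86% to 2.60%. For Vcam1 they were apart in miR-181 mice (8.76% to 10.6% against 13.0% to 18.4%) but overlapped in GFP mice (6.09% to 7.38% against 7.10% to 8.47%).

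The genes whose log2 values followed Icam1 most closely over both sets, by the lower of 2 Pearson coefficients over 6 miR-181 and 9 GFP libraries among 14824 genes, were Ctsz (0.98 in the less alike set), H2-Q6 (0.98) and Tlr2 (0.97). For Vcam1 they were Gbp5 (0.96), Fcer1g (0.96) and Syk (0.94). The libraries fall into an injected and an uninjected side, so these coefficients mostly describe that split. For Cldn5, which did not pass in either set, the closest were Bag1 (0.94), Notch1 (0.91) and Adgrg1 (0.89), and for Flt1 they were Coa7 (0.88), Gm2115 (0.87) and Stip1 (0.85). All these coefficients are the highest among 14824 genes over few libraries, with both sides of a mouse counted separately. The height that chance alone would give was not tested.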

How the data were processed

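PolyA-selected, stranded libraries (15, from the substantia nigra of 8 mice) were read as pairs of 75 bases (miR-181 set) or 50 bases (GFP set) on different Illumina sequencers, per the labels' protocols. The submitters' processing notes name kallisto 0.43.1, sleuth 0.30.0 and GRCm38. The authors deposited 1 value for each gene and library, taken here to be a signal (TPM over a size factor) because the sums lie near, but not at, a fixed total; the planned test assumed TPM and was kept. The authors' q-values (from their p-values) are deposited beside coefficients read as natural logs, and mean natural log estimated counts, whose antilog is given as a geometric mean. Depth of single libraries is unknown, so no counting interval is given.

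The tables have 56305 rows each; 36660 of these held values, and 395 repeated rows were left out. log2(value + 0.5) was tested with limma 3.58.1 (R 4.3.3, intensity trend, Benjamini-Hochberg at 0.05) on every gene whose mean was 1 or more: injected against uninjected libraries in each set, and the within-mouse change of 3 miR-181 against 4 GFP mice. The fit was tested on simulated data. Replicates are different mice, so p-values measure the spread between these animals. The main fit in each set did not use the pairing of the sides, whereas the fit with mouse as a block did. The labels tie an injected and an uninjected library to the same animal, so mouse numbers pair them: deviations from group means correlated at 0.183, 0.140 and 0.257 (miR-181) and 0.192, 0.0947, 0.0177 and 0.122 (GFP). Members and gene lists were chosen with earlier results of these data known. Named were the members, Ly6c2, Kdr and Cdh5, the 2 genes of each list with the smallest p in each comparison, and the 3 genes most like a member; others are said to be chosen later, and 1 gene that the rule names is not reported here. Lists named by cell type also covered oligodendrocyte, choroid plexus, fibroblast and meningeal, smooth muscle, dopamine, serotonin and pituitary genes. With all libraries in the fit these lists had 0 genes called in any comparison where they could be tested. Serotonin genes were tested in miR-181 mice alone. Alternatives were other pseudocounts, filters and scalings, no trend, mouse as a block and each library left out. Sequences were read from RefSeq tables and GENCODE M21 with Python 3.11.15, numpy 2.4.6 and pandas 2.3.3; figures used matplotlib 3.10.9.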

Additional observations from a re-analysis of the deposited data

Results flagged for a closer look

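Ly6c1 was at 159.8 on the uninjected side of GFP mouse 4, far above the other 4 uninjected GFP libraries, which ran from 126 to 131. The injected side of the same mouse was also high, at 162. This was the 1 such library found among 26 groups of 4 or 5 libraries looked at over 13 genes, and chance gives about 1 in 20 groups.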

How the results depend on the processing

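Of 498 refitted member changes 450 kept their direction and their side of the threshold, 14 lost the call, 1 gained it and 33 changed sign; the cause was not tested. The count called in miR-181 mice, 2, was 0 with no filter on low values, 1 with no intensity trend, 1 with mouse as a replicate block and 0 to 3 without 1 library. The count in GFP mice, 1, was 0 at a mean of at least 5, where Icam1 is not tested, 0 with mouse as a replicate block, and 1 without any 1 library. For the difference it was 0 under every setting tried, also with no replicate block. The block ended the calls of Vcam1 in miR-181 mice and Icam1 in GFP mice and changed no other member's call. With no filter, Icam1 had an adjusted p of 0.0504 and Vcam1 0.0844 in miR-181 mice; with no trend Vcam1 had 0.0729. Scalings moved the median change of all genes by at most 0.065 (log2). All sign changes were of values that did not pass. In miR-181 mice, centring on the median gave -0.0213 for Pecam1, -0.0175 for Flt1 and -0.0322 for Slco1a4; quantile normalization gave -0.0148 for Pecam1; centring on pan-endothelial genes gave -0.00526 for Pecam1, -0.00141 for Flt1 and -0.0161 for Slco1a4. With mouse as a replicate block Flt1 was 0.0228 in GFP mice. For the difference, centring on the median gave -0.0169 for Tjp1, -0.0239 for Pecam1 and -0.0249 for Flt1, quantile normalization -0.0142 for Pecam1, and no replicate block -0.0287 for Pecam1. Without 1 library, changes ran in miR-181 mice from -0.0891 to 0.415 for Cldn5, -0.118 to 0.186 for Pecam1, -0.0156 to 0.112 for Flt1 and -0.0643 to 0.111 for Slco1a4, and in GFP mice from -0.0300 to 0.0400 for Flt1 and -0.00361 to 0.128 for Ly6c1. Without 1 mouse, differences ran from -0.141 to 0.0234 for Cldn5, -0.104 to 0.0961 for Pecam1 and -0.000386 to 0.0670 for Tjp1.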
